A study of Mus musculus with 5 samples.

Results

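Serine synthesis and the folate-dependent one-carbon cycle were described here through 10 enzyme genes, Phgdh, Psat1, Psph, Shmt1, Shmt2, Mthfd1, Mthfd2, Mthfd1l, Mthfd2l and Aldh1l2. They were chosen by symbol, and all 10 were measured among 22180 named genes. Each was measured by a single array feature, and no other feature of the platform table named any of them, so no choice between features was needed. The study concerned vitamin A and the dormancy of mouse hematopoietic stem cells (HSCs), the bone marrow cells that renew the blood. C57BL/6 mice were the source of the stem and progenitor cells, which were cultured for 24 h with 5 µM all-trans retinoic acid (ATRA), the active form of vitamin A, or with its solvent DMSO as control. HSCs were sorted by flow cytometry after the culture, and their RNA was measured on 3 DMSO arrays and 2 ATRA arrays. Both groups were therefore cultured cells, sorted after treatment, and uncultured cells were not analysed here. No label says whether the replicates came from separate animals or cultures, so a p-value measures the spread between these arrays, which may be technical.

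The serine pathway starts from a glycolytic intermediate. Phgdh oxidizes it, Psat1 transfers an amino group and Psph removes the phosphate to give serine. The hydroxymethyltransferases Shmt1 (cytosol) and Shmt2 (mitochondria) pass a carbon unit from serine to tetrahydrofolate and release glycine. In mitochondria Mthfd2 or Mthfd2l oxidizes the folate-bound unit, Mthfd1l releases it as formate, and Aldh1l2 can oxidize it to carbon dioxide with production of NADPH. The cytosolic enzyme Mthfd1 takes up formate again, and the units are used for purines, thymidylate and methionine. Dividing cells are known to draw on this pathway for nucleotides.

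In DMSO, 12 measured HSC marker genes all had means above the median feature (5.90 on the log2 scale). Their median ran from 8.10 to 8.53 over the DMSO arrays and was 7.40 and 6.51 in the ATRA arrays. Of the 12, 0 were called higher and 7 lower with ATRA. Of all genes, 15.5% were called lower and 6.48% higher. The share called lower was 52.8% at a DMSO mean of 8 or more and 28.1% from 7 to 8. With the level trend described below removed, 0 of the 12 were called in either direction. In the DMSO arrays, lists for other cells had medians closer to the median feature. This did not hold in ATRA replicate 2. There the megakaryocyte (7.42), endothelial and stromal (6.94) and erythroid (6.90) medians lay above the HSC median of 6.51, and those of the remaining lists below it. The 11 neutrophil, monocyte and macrophage markers had medians of 5.57 to 6.27 in DMSO and of 6.27 and 6.23 in the ATRA arrays, and the 7 T and NK cell markers had medians of 5.27 to 5.38 in DMSO and of 5.69 and 6.00 in ATRA, with 1 member of each list higher and 0 lower. The differences between groups had medians of -0.56 for 3 measured erythroid, -0.17 for 5 megakaryocyte (1 lower, with a median level of 7.93 in each DMSO array, the value of Gp9, which is identical to the last digit in all 5 arrays), 0.41 for 5 B cell, 0.51 for 4 mast cell and basophil and 0.21 for 6 endothelial and stromal markers (1 higher). The values of the ATRA arrays also had a smaller spread, with an SD over all features of 1.77 and 1.49 against 1.96 to 1.97 in DMSO. Genes with high DMSO values mostly lay lower in both ATRA arrays. The part of these features of the arrays in the differences below was not tested, and in bulk RNA fewer cells of a type and less RNA per cell cannot be told apart.

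Of the 10 genes, 4 fell with ATRA, namely Shmt2, Mthfd1, Mthfd1l and Shmt1, 0 rose and 6 did not pass (limma, Benjamini-Hochberg adjusted p under 0.05 over all genes). Of all genes, 15.5% were called lower and 6.48% higher. The share called lower depended strongly on the level in DMSO. It was 45.7% of the 645 genes with a DMSO mean of 10 or more, where Shmt2 lay, 57.5% of the 1223 genes from 9 to 10 (Mthfd1) and 52.4% of the 2582 genes from 8 to 9 (Shmt1, Mthfd1l and Phgdh). From 7 to 8 it was 28.1% (Psat1 and Mthfd2l), and from 6 to 7 it was 2.65% (Psph and Mthfd2). The 4 calls thus lie in bands where about as many genes were called lower as not. The median difference of the 10 genes was -1.50, against 0.16 for all genes, whose mean was -0.14. These 2 medians are not matched for level, since 7 of the 10 genes had a DMSO mean of 7 or more. The median of all genes was 0.45 from 5 to 6 and 0.14 from 6 to 7. It was -0.64 from 7 to 8, -1.33 from 8 to 9, -1.94 from 9 to 10 and -2.32 from 10 on. No call was kept when DMSO replicate 1, 2 or 3 was left out, as for all genes (0 members called, 4 members at an unadjusted p under 0.05 by limma in each case). Without ATRA replicate 1, 7 members were called lower and 1 higher, where 30.6% of all genes were called lower and 33.5% higher, and without replicate 2 the counts were 6 and 1, where the shares were 21.3% and 13.3%. The lone ATRA array was then assumed to vary like the DMSO arrays, and calls were more frequent over all genes too. These counts include Psph, lower without replicate 1 and higher without replicate 2, and Aldh1l2, higher without replicate 1, whose DMSO values were identical to the last digit in 3 and 2 arrays respectively, so that these 3 calls rest on an SD that is no measure of precision.

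**Figure D1:**
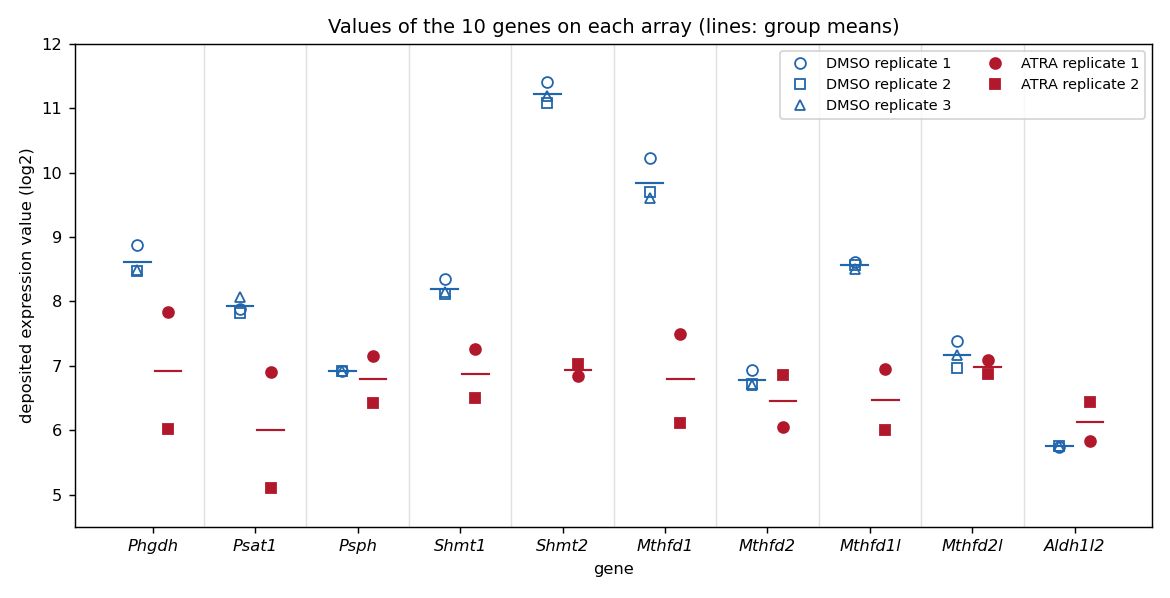
Deposited log2 values (vertical axis) of the 10 genes (horizontal axis) on each array, with open blue symbols for the 3 DMSO arrays, filled red symbols for the 2 ATRA arrays and short lines for group means. Shmt2 stands between 11.08 and 11.41 in DMSO and at 6.84 and 7.03 in ATRA, while Psph, Mthfd2 and Mthfd2l overlap between groups.

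Both ATRA values lay below all 3 DMSO values in 6 of the genes, above them in 1, Aldh1l2, and overlapped with them in 3. Over all genes, 29.2% were separated downwards and 33% upwards, and downward separation was found in 61.9% of genes in the DMSO band from 7 to 8, 81.9% from 8 to 9, 85% from 9 to 10 and 76.9% from 10 on, the bands that hold these 6 genes. The arrays treated with ATRA differed from each other, with the lower value in ATRA replicate 2 for 7 of the 10 genes. This was not particular to the 10 genes. Over all features the ATRA arrays correlated at 0.73 with each other, and the DMSO arrays at 0.966 to 0.978. ATRA replicate 1 correlated at 0.811 to 0.834 with the DMSO arrays, and ATRA replicate 2 at 0.6024 to 0.6415. The median difference of the 10 genes from the DMSO mean was -0.86 in ATRA replicate 1 and -2.13 in replicate 2.

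Shmt2, the mitochondrial hydroxymethyltransferase (feature 17245902, chr10:127517123-127522444, GRCm38.p6), was measured at 11.41, 11.08 and 11.19 in DMSO replicates 1 to 3 and at 6.84 and 7.03 in ATRA replicates 1 and 2. The groups were far apart, and the ATRA arrays were as close to each other as the DMSO arrays were. Shmt2 fell by 4.29 on the log2 scale (SE 0.16, limma adjusted p = 0.00627), which is 19.6-fold lower on the scale of the deposited values. In ATRA replicate 1, none of the other genes with a DMSO mean of 10 or more had a larger fall (0 of 645), whereas in ATRA replicate 2 there were 116 such genes. Shmt1, the cytosolic enzyme of the same reaction (feature 17263673, chr11:60788897-60811265), was measured at 8.35, 8.12 and 8.14 in DMSO and at 7.26 and 6.51 in ATRA. Its values did not overlap between groups either, and it fell by 1.32 (SE 0.26, limma adjusted p = 0.0336). That fall was in the middle of its level band, where 1330 of 2582 genes had a larger fall in ATRA replicate 1 and 1326 in replicate 2.

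Mthfd1, the cytosolic enzyme that activates formate (feature 17276520, chr12:76254406-76319820), was measured at 10.23, 9.70 and 9.60 in DMSO and at 7.49 and 6.11 in ATRA. All ATRA values lay more than a log2 unit below the DMSO values, and the gene fell by 3.04 (SE 0.48, limma adjusted p = 0.0206), or 8.25-fold. Of the 1223 genes of its band, 155 had a larger fall in ATRA replicate 1 and 117 in replicate 2. Mthfd1l, the mitochondrial formate-releasing enzyme (feature 17231387, chr10:3972892-4167081), was at 8.62, 8.56 and 8.50 in DMSO and at 6.95 and 6.01 in ATRA. The DMSO arrays agreed closely (SD 0.058, n = 3), and the gene fell by 2.08 (SE 0.31, limma adjusted p = 0.0179). In its band, 501 of 2582 genes had a larger fall in ATRA replicate 1 and 407 in replicate 2.

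So that the 4 genes that fell can be compared, their 160 bases before the transcript start that a RefSeq window of GRCm38.p6 is drawn around are shown (a window was found for 9 of the 10 genes). That start is the outer end of the locus given above for Shmt2 and Shmt1, but lies 826 bases inside the locus of Mthfd1 and 183 inside that of Mthfd1l, so the printed bases of those 2 genes lie within their loci. They run 5′ to 3′ on the strand of the gene, at chr10:127522445-127522604 (minus strand), chr11:60811266-60811425 (minus), chr12:76255072-76255231 (plus) and chr10:3972915-3973074 (plus). Capitals mark matches on either strand to CCAAT, the letters of the NF-Y box, or to AGGTCA, a half-site of retinoid receptors and their relatives.
Shmt2: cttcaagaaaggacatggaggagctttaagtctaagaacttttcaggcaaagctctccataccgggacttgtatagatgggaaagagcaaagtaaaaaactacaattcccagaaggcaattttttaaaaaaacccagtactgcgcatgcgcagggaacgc
Shmt1: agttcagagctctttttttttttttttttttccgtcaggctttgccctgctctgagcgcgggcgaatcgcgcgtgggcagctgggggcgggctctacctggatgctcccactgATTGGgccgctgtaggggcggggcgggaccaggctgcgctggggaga
Mthfd1: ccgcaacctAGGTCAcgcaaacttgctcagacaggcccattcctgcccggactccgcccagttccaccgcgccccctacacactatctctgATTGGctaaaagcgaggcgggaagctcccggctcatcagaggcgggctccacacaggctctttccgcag
Mthfd1l: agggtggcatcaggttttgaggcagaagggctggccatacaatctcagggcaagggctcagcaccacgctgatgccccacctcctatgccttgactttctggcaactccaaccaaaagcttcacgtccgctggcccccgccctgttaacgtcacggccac
In Shmt1 and Mthfd1 the capitals ATTGG are CCAAT read on the opposite strand, at positions -47 to -43 and -69 to -65 from the start, and AGGTCA lies at -151 to -146 in Mthfd1. The printed bases of Shmt2 and Mthfd1l hold neither. In the full windows of 300 bases, 250 before and 50 from the start on, CCAAT was found in 6 of the 9 genes (Phgdh, Psat1, Psph, Shmt1, Mthfd1 and Mthfd2) and in 37.4% of all 32851 windows. Of these windows, that of Mthfd2 was drawn around a start 8407 bases inside the locus, and that of Psph around one 190 bases inside. AGGTCA was found in Mthfd1 only, and in 16.3% of all windows. The E-box CACGTG (7.2% of all windows) and TGATGNAA, the letters of a C/EBP-ATF element (4.0%), were found in none of the windows of these 9 genes. The motifs were searched on both strands and do not overlap each other in these windows. The GC content ran from 42.7% in the window of Shmt2 to 66.7% in one of Psat1, with a median of 52.7% over all windows, and the windows held 8 to 30 CpG pairs against a median of 7.

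The 3 enzymes of serine synthesis did not pass with all arrays. Phgdh, the entry enzyme (feature 17408273, chr3:98313171-98339969), was at 8.88, 8.47 and 8.49 in DMSO and at 7.84 and 6.02 in ATRA. The ATRA arrays lay below the DMSO arrays but differed from each other by 1.82, and the difference from DMSO was -1.69 (SE 0.58, limma adjusted p = 0.105). It was -2.60 without ATRA replicate 1 and -0.78 without replicate 2. Psat1, the aminotransferase (feature 17363204, chr19:15905123-15925059), was at 7.88, 7.82 and 8.08 in DMSO and at 6.90 and 5.11 in ATRA. Its groups did not overlap either, and the difference was -1.92 (SE 0.56, limma adjusted p = 0.0751). The difference of Psat1 was -2.82 without ATRA replicate 1 and -1.03 without replicate 2. Its ATRA values differed by 1.79, and a fit with 1 of them takes its spread from the DMSO arrays alone. In ATRA replicate 2, 31 of the 3409 genes of its band had a larger fall, and in replicate 1 there were 669. Psph, the phosphatase (feature 17453124, chr5:129765558-129787443), had the same deposited value of 6.91 in all 3 DMSO arrays, to the last digit, and was at 7.15 and 6.43 in ATRA, on either side of it. Its difference was -0.12 (SE 0.24, limma adjusted p = 0.694). A value shared to the last digit by at least 2 of the 5 arrays was found for 47.8% of all genes, and the SD of 0 of Psph in DMSO is therefore no measure of its precision.

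The 2 mitochondrial dehydrogenases did not pass with all arrays. Mthfd2, the isozyme of dividing and embryonic cells (feature 17468143, chr6:83305704-83326011), was at 6.94, 6.72 and 6.70 in DMSO and at 6.06 and 6.86 in ATRA, so that ATRA replicate 2 lay among the DMSO arrays. Its difference was -0.33 (SE 0.28, limma adjusted p = 0.366), and it was 0.08 without ATRA replicate 1 and -0.73 without replicate 2. Mthfd2l, its relative of adult tissues (feature 17439003, chr5:90930873-91021368), was at 7.38, 6.97 and 7.18 in DMSO and at 7.09 and 6.88 in ATRA. The groups overlapped, and the difference was -0.19 (SE 0.18, limma adjusted p = 0.394), which turned to 0.05 after quantile normalization and to 0.23 with the level trend removed. Aldh1l2, the mitochondrial formyltetrahydrofolate dehydrogenase (feature 17243544, chr10:83487447-83534146), was the only member with higher values in both ATRA arrays. It was at 5.75 in all 3 DMSO arrays, with the same deposited value to the last digit in replicates 2 and 3, so that its SD there is no measure of precision either, and at 5.83 and 6.43 in ATRA, with a difference of 0.38 (SE 0.21, limma adjusted p = 0.227). The difference was -0.04 after cyclic loess normalization. Genes with a DMSO mean from 5 to 6 had a median difference of 0.45, so Aldh1l2 did not stand above them.

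Because the differences of all genes followed their level in DMSO, the trend was fitted for each array as a smooth curve over all genes and subtracted. At the DMSO level of Shmt2, the curve lay at -2.14 in ATRA replicate 1 and at -4.12 in replicate 2, against measured differences of -4.39 and -4.20. What remained for Shmt2 was -2.25 in replicate 1 and -0.08 in replicate 2, so the arrays that agreed before did not agree after the subtraction. For Mthfd1 the remainders were -0.80 and -0.82, and for Mthfd1l they were -0.62 and -0.77. These were alike in both ATRA arrays. For Psat1 they were -0.32 and -1.62, and for Shmt1 -0.12 and -0.24. Phgdh was left with 0.24 and -0.77, on either side of 0.

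**Figure D2:**
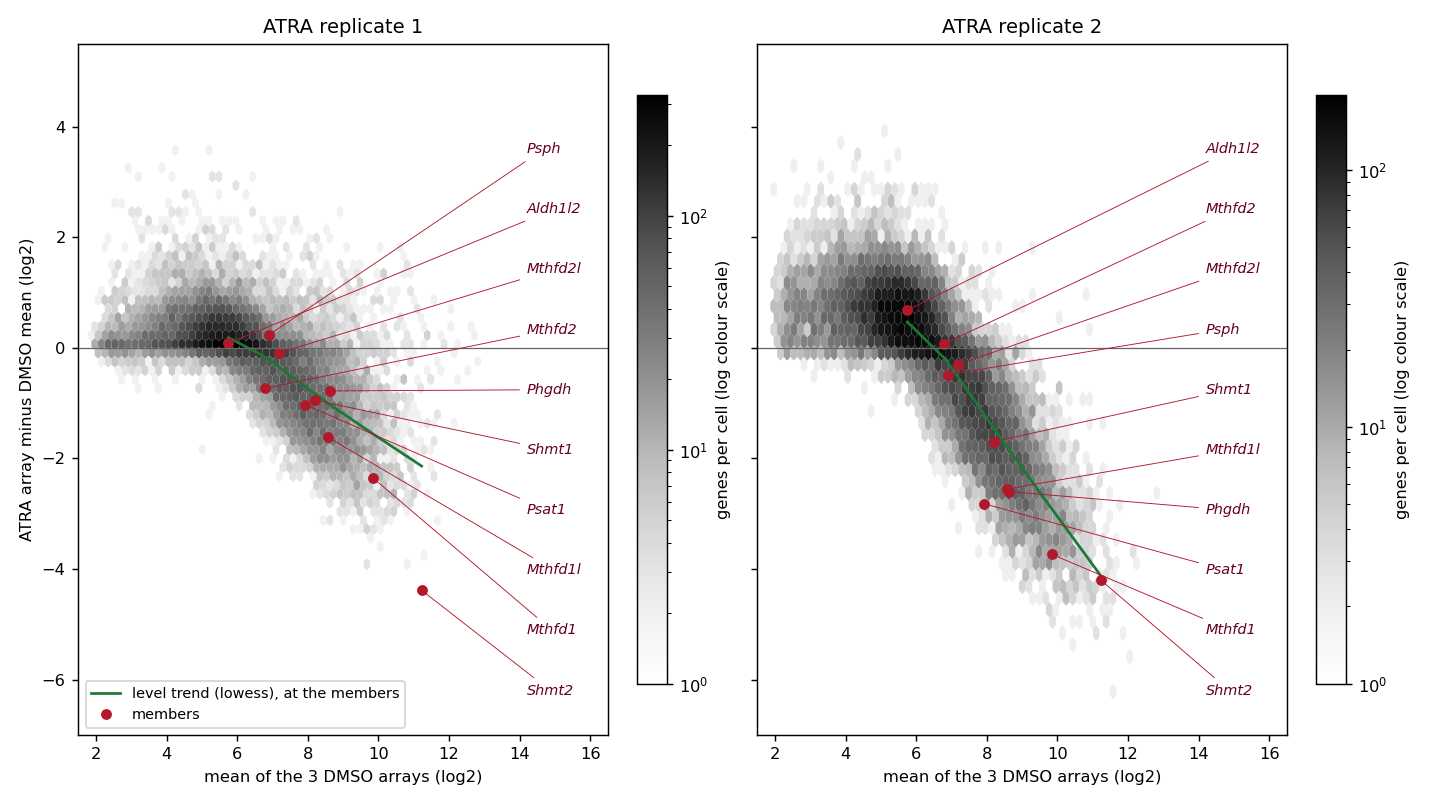
Difference of each ATRA array from the DMSO mean (vertical axis, log2) against the DMSO mean (horizontal axis, log2) for all 22180 genes as grey cells, with the 10 members in red and the fitted level trend in green. Shmt2 lies 2.25 below the curve in ATRA replicate 1 and 0.08 below it in replicate 2, where Psat1 is furthest from it (-1.62).

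With the trend removed, 0 of the 10 genes passed in either direction, where 0.92% of all genes were called lower and 2.44% higher. Shmt2 differed by -1.17 (SE 0.63, limma adjusted p = 0.323), Psat1 by -0.98 (SE 0.39, adjusted p = 0.217), Mthfd1 by -0.82 (SE 0.21, adjusted p = 0.111) and Mthfd1l by -0.70 (SE 0.13, adjusted p = 0.0602). The remaining differences of Phgdh (-0.27), Shmt1 (-0.19), Mthfd2 (-0.16), Aldh1l2 (0.06), Psph (0.13) and Mthfd2l (0.23) were within 0.3 of 0. Psph and Mthfd2l thereby changed sign. The value for Shmt2 depended on how closely the curve followed the data, with -1.91 (adjusted p = 0.23) for a curve with a narrower span, an alternative chosen after seeing the data, in which 0 members passed, against 0.929% of all genes called lower and 1.96% higher. The median over the 10 genes was -0.23 with the trend removed, against 0.06 for all genes.

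**Figure D3:**
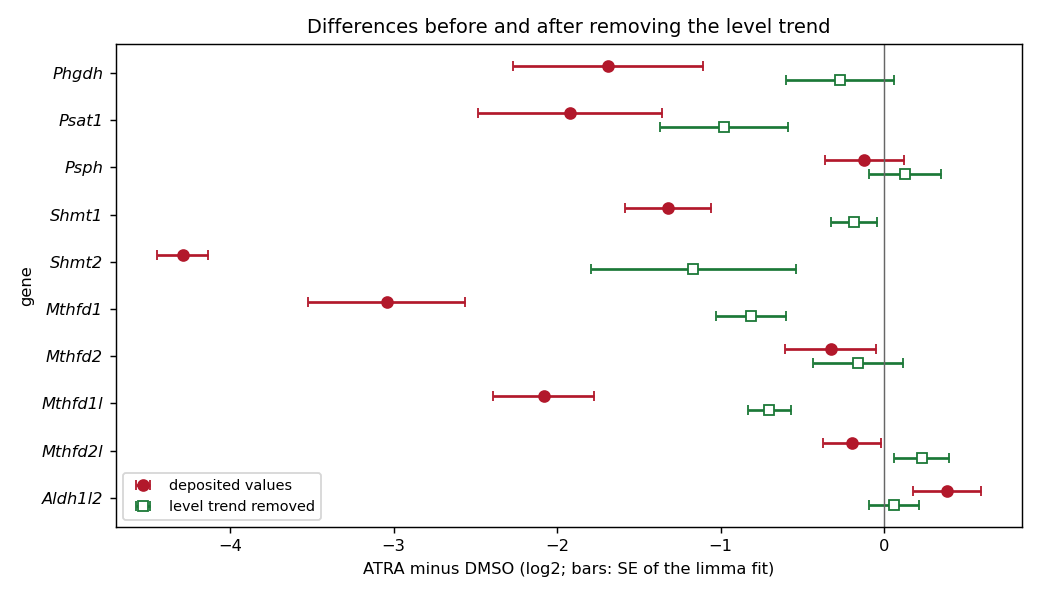
Difference of ATRA from DMSO (horizontal axis, log2) for each of the 10 genes (vertical axis), with red circles for the deposited values, green squares for values with the level trend removed and bars for the SE of the limma fit. Shmt2 moves from -4.29 to -1.17 and Mthfd1 from -3.04 to -0.82.

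Related enzymes that act in different compartments, or as alternatives in one, were set against each other within each array, in 4 pairs. The difference Shmt2 minus Shmt1 was 3.06, 2.96 and 3.05 in DMSO and -0.42 and 0.52 in ATRA, a change of -2.97 (SE 0.47, exact two-sided permutation p = 0.1, 0.133 adjusted over the 4 pairs). That is the smallest p that 3 against 2 arrays allow, so no pair could pass. The difference Mthfd1l minus Mthfd1 moved the other way, from -1.61, -1.14 and -1.10 to -0.54 and -0.10, a change of 0.96 (SE 0.27, exact permutation p = 0.1, adjusted 0.133). Aldh1l2 minus Aldh1l1, where Aldh1l1 is the cytosolic enzyme, changed by 0.97 (SE 0.07, exact permutation p = 0.1, adjusted 0.133), from between -1.58 and -1.43 to -0.61 and -0.51. For these 3 pairs the groups did not overlap. Mthfd2 minus Mthfd2l changed by -0.13 (SE 0.51, exact permutation p = 0.9), with values of -1.03 and -0.01 in ATRA on both sides of the DMSO values, and by 0.38 without ATRA replicate 1. With the level trend removed, the changes were -0.98 for Shmt2 minus Shmt1, 0.11 for Mthfd1l minus Mthfd1 and 0.15 for Aldh1l2 minus Aldh1l1 (exact permutation p = 0.4, 0.9 and 0.5). Mthfd2 minus Mthfd2l then changed by -0.39 (exact permutation p = 0.4), more than the -0.13 of the deposited values.

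**Figure D4:**
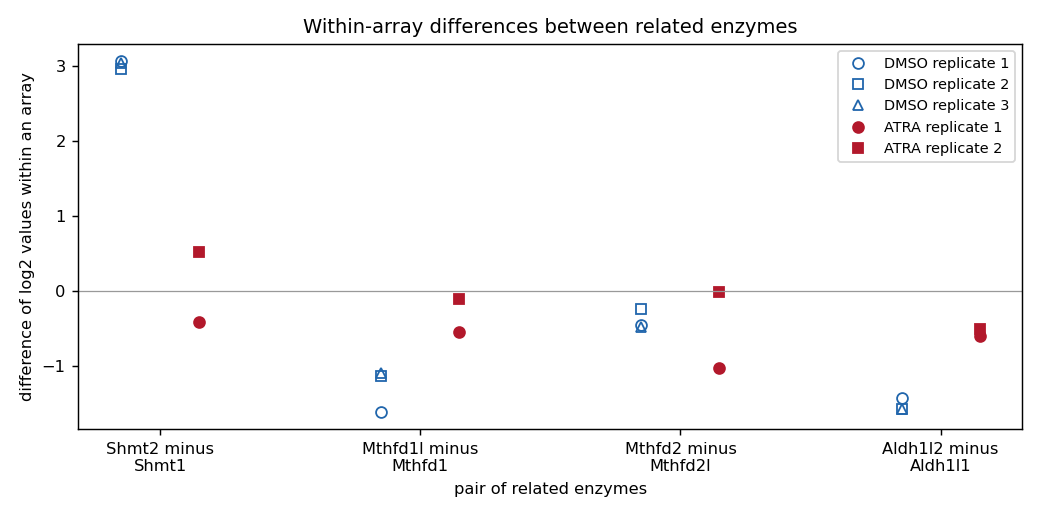
Difference of log2 values between related enzymes within each array (vertical axis) for 4 pairs (horizontal axis), with open blue symbols for DMSO arrays and filled red symbols for ATRA arrays. Shmt2 minus Shmt1 goes from about 3 in DMSO to -0.42 and 0.52 in ATRA, and Mthfd2 minus Mthfd2l overlaps between groups.

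The genes whose 5 values, each taken from its own DMSO mean, lay nearest to those of Shmt2 were Aph1a (Euclidean distance 0.486 over the 5 arrays), F11r (0.591) and Atxn2l (0.625). All 3 passed, with log2 differences of -4.26, -3.93 and -3.90. Neighbours were picked on the same 5 values that the fit uses, so like differences and calls follow from the choice. Phgdh had nearer neighbours, Vkorc1l1 (0.0829), Taf1b (0.133) and Chd1 (0.154), none of which passed, and so did Mthfd2, with Gorasp1 (0.0510), Tmem120b (0.0675) and Uprt (0.0767). The nearest neighbours of Phgdh and Mthfd2 were thus closer than those of Shmt2.

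Beyond the 10 enzymes, 63 of 70 listed genes of serine, glycine, folate and methionine metabolism, its regulators and the Atf4 response were measured, of which 5 rose, 20 fell and 38 did not pass, with a median of -0.44. Over all genes, 6.48% were called higher and 15.5% lower. Among genes with a DMSO mean of 8 or more, 14 of the 20 listed fell and 52.8% of all 4450 genes were called lower, and below that level 6 of the 43 listed fell and 5 rose, against 6.1% and 7.9% of all genes. In transport, 5 of 8 measured genes fell and 0 rose (median -1.74), and those 5 were the ones with a DMSO mean of 8 or more. They were Slc1a5, a carrier of neutral amino acids with glutamine as a main substrate (-3.46, limma adjusted p = 0.012), Sfxn1 (-3.42), the mitochondrial serine carrier, its relatives Sfxn3 (-3.04) and Sfxn2 (-1.88), and Slc38a2 (-1.59), whose difference became 0.15 with the level trend removed. Sfxn1 was at 10.41, 10.48 and 10.24 in DMSO and at 8.08 and 5.84 in ATRA, a wide gap between the ATRA arrays.

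Among 11 measured enzymes of the folate cycle, 3 fell and 0 rose (median -0.58). At a DMSO mean of 8 or more 2 of 5 fell, where 52.8% of all genes were called lower. Below that level 1 of 6 fell, where 6.1% of all genes were called lower and 7.9% higher. Gart and Atic, which use formyl-folate in purine synthesis, differed by -3.11 (limma adjusted p = 0.00699) and -2.74 (limma adjusted p = 0.0087), and Mtrr, which reactivates methionine synthase, fell by 0.91. Gart was at 10.69, 10.48 and 10.46 in DMSO and at 7.76 and 7.11 in ATRA. Tyms, the thymidylate synthase, was at 9.43, 9.44 and 9.49 in DMSO and at 9.43 in both ATRA arrays, with the same deposited value in DMSO replicate 1 and both ATRA arrays. Its difference of -0.02 (limma adjusted p = 0.872) became 0.72 after quantile normalization and 1.95 (limma adjusted p = 0.0574) with the level trend removed. Of the 7 folate carriers and polyglutamation enzymes, Fpgs, which adds glutamates to folate (-1.29), and the reduced folate carrier Slc19a1 (-0.87) fell and the folate receptor gene Folr2 rose by 0.72. Slc25a32, the mitochondrial folate carrier, differed by -1.43 (limma adjusted p = 0.209), with 7.83 and 5.45 in the ATRA arrays.

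In the methionine cycle, 4 of 11 measured genes fell and 3 rose, with a median of 0.32 and a mean of -0.25, which differ in sign. At a DMSO mean of 8 or more 3 of 3 fell, where 52.8% of all genes were called lower. Below that level 1 of 8 fell and 3 rose, where 6.1% of all genes were called lower and 7.9% higher. Ahcy, which cleaves S-adenosylhomocysteine, was at 8.77, 8.35 and 8.68 in DMSO and at 5.57 and 5.18 in ATRA, and fell by 3.23 (SE 0.21, limma adjusted p = 0.0065). It was the only gene of the 63 still called with the level trend removed (-1.82, adjusted p = 0.0214). Its relative Ahcyl1 (-1.98), the methionine adenosyltransferase subunit Mat2b (-1.34) and Mtap (-0.84), which salvages methionine from methylthioadenosine, fell too, and the difference of Mtap became 0.67 after cyclic loess normalization and 0.94 with the trend removed. The genes that rose are known mainly from liver, the betaine methyltransferases Bhmt (1.32) and Bhmt2 (0.86) and the adenosyltransferase Mat1a (1.17). Their DMSO means were low, at 6.02, 5.58 and 5.49. Of all genes, 9.87% were called higher in the band from 5 to 6, with a median difference of 0.45, and 4.36% from 6 to 7. With the level trend removed the 3 differed by 1.09, 0.49 and 0.78, and none passed (limma adjusted p = 0.141, 0.213 and 0.0676). Of the 4 measured genes of the glycine cleavage system, Dld, a subunit it shares with other mitochondrial dehydrogenase complexes, fell by 1.54, and Gcsh (-0.30) and Amt (0.43) did not pass. Of 7 measured genes of serine use, Sptlc1, a subunit of the first enzyme of sphingolipid synthesis, fell by 1.47, while Sptlc2 (-1.49, with 8.86 and 7.18 in ATRA), Ptdss1 (-0.89) and Ptdss2 (-0.44) did not pass.

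Among 15 measured regulators and genes of the Atf4 response, 1 rose and 4 fell (median -0.39). Of the 4 genes with a DMSO mean of 8 or more 3 fell, where 52.8% of all genes were called lower. Below that level 1 of 11 fell and 1 rose, where 6.1% of all genes were called lower and 7.9% higher. Atf4, the transcription factor known to drive the serine pathway under amino acid shortage, was at 10.19, 10.19 and 10.13 in DMSO and at 10.13 and 7.87 in ATRA. Its difference of -1.17 (SE 0.69, limma adjusted p = 0.246) rested on ATRA replicate 2, since replicate 1 had the same deposited value as DMSO replicate 3. With the level trend removed it was 1.27 (limma adjusted p = 0.0628). Asns, the asparagine synthetase and a known Atf4 target, fell by 1.08, Eif2ak4, the kinase that senses uncharged tRNA, by 1.38, Myc by 1.66 and the histone demethylase gene Kdm4c by 0.60. With the trend removed, the differences of Asns and Myc became 0.19 and 0.995 (adjusted p = 0.611 and 0.0822). Cebpb, a partner of Atf4, rose by 0.53 (limma adjusted p = 0.0468). No gene of these lists passed without DMSO replicate 1, 2 or 3.

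**Figure D5:**
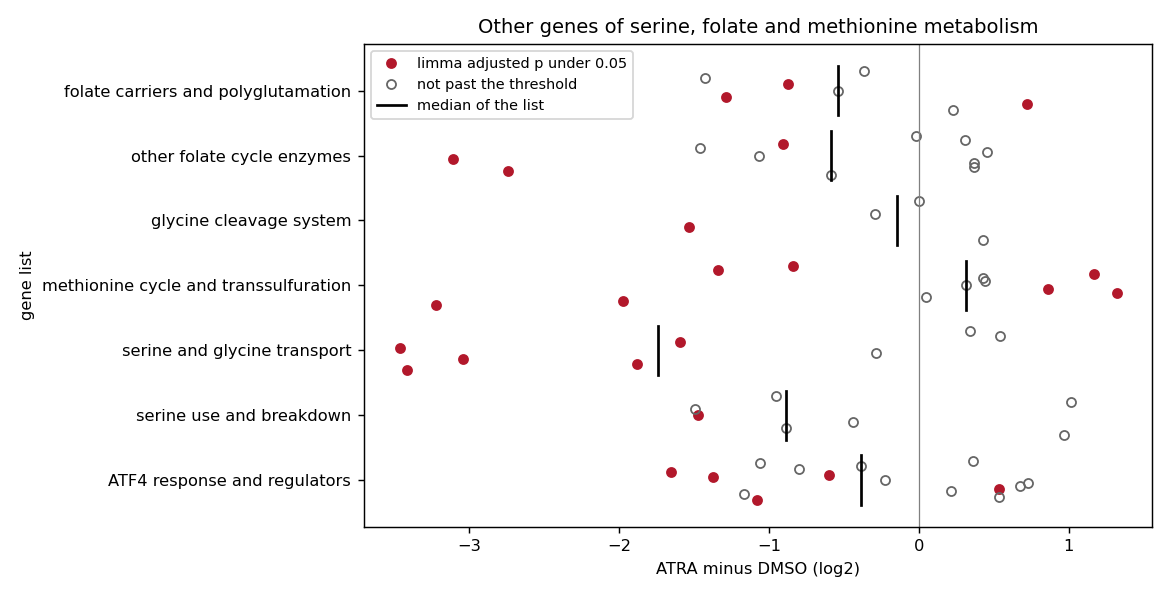
Difference of ATRA from DMSO (horizontal axis, log2) for the 63 measured genes of 7 lists (vertical axis), 1 point per gene, filled where the limma adjusted p was under 0.05, with black lines for list medians. The transport list has the lowest median (-1.74), and the methionine list holds both falls, down to -3.23 for Ahcy, and rises, up to 1.32 for Bhmt.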

How the data were processed

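Gene expression of sorted mouse HSCs was analysed from 5 arrays. The authors deposited log2 expression values, with a value for each feature on every array. RMA, oligo 1.36.1 and limma 3.28.20 are named, without role or order, by the submitters' processing notes. The genome build is not given in the sources used here. RMA values compress the differences of dim features.

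Of 41345 features, 25335 were listed in GEO's platform annotation, and 23521 named 1 gene there, with symbols updated by identifier (GRCm38.p6). They gave 22180 genes, each by its feature with the highest mean. No filter on low values was used, and 9 of the 10 members would have passed one at the median feature. limma (version 3.58.1, R 4.3.3) compared 2 group means with eBayes (3 residual degrees of freedom, prior worth 1.52). The test was two-sided, p-values were adjusted by Benjamini-Hochberg across the 22180 genes, and the threshold was 0.05. All adjusted p-values of genes are limma's. The fit was tested on simulated data, where 200 of 200 genes changed by 3 log2 units among 22180, and 12 unchanged ones, were called. Unlike these arrays, the simulated ones had equal noise in both groups and no level trend. Those counts therefore do not measure how the fit performs here. Groups and replicates follow the sample titles, and the number of arrays limits the precision.

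The level trend is a lowess curve (span 0.667) of each array's difference from the DMSO mean on that mean, which was subtracted. Named genes are the 10 members, every gene of the lists past the threshold, the 3 of each list with the highest means, and the 3 nearest profiles of Phgdh, Shmt2 and Mthfd2. Members, lists and motifs were chosen with earlier results of these data known. Alternatives left out each array, added the replicate number as a block, or changed normalization, filter, variance model, features per gene or threshold.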

Additional observations from a re-analysis of the deposited data

How the results depend on the processing

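Directions of the 4 genes that fell (Shmt1, Shmt2, Mthfd1, Mthfd1l) and of Phgdh and Psat1 were the same under all alternatives run. The count of members called lower, 4 with all arrays, was 1 after quantile normalization, 2 after cyclic loess normalization, 0 with array weights or the level trend removed (either span), and it ranged from 0 to 7 when 1 array was left out. The count called higher, 0, ranged from 0 to 1. The median member (-1.50) moved to -0.59 after cyclic loess, -0.23 with the level trend removed and -0.24 with its narrower span.

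Of all genes, 3428 were called lower and 1437 higher. These became 1743 and 439 after quantile normalization, 1504 and 771 after cyclic loess, 204 and 542 with the level trend removed, 206 and 435 with the narrower span, and 0 and 0 with array weights (4377 genes at an unadjusted p under 0.05 by limma). The count called higher was 560 after median centring, 516 without dim features and 3083 at an adjusted p under 0.1. Median centring moved the median of all genes from 0.16 to -0.11, quantile normalization to -0.03 and cyclic loess to -0.05. Leaving out 1 array gave 0 to 6783 lower and 0 to 7424 higher.

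The pathway lists held 20 genes lower and 5 higher. The counts were 12 and 1 after quantile normalization, 8 and 2 after cyclic loess, 1 and 0 with the level trend removed with either span, and 0 and 0 with array weights. The higher count was 1 after median centring and 2 without dim features. Without 1 array, the counts were 0 to 30 and 0 to 15.

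Members whose sign turned were Psph, to 0.24 without ATRA replicate 2 (-0.48 without replicate 1), 0.00744 after cyclic loess, 0.13 with the level trend removed and 0.0697 with the narrower span, and Mthfd2l, to 0.0514 after quantile normalization, 0.14 after cyclic loess, 0.23 with the trend removed and 0.20 with the narrower span. Mthfd2 turned to 0.0757 without ATRA replicate 1 (-0.73 without replicate 2), and Aldh1l2 to -0.0438 after cyclic loess and -0.0060 with the narrower span. The change of Shmt2 minus Shmt1 was -2.03 after cyclic loess, -0.98 with the trend removed, -1.78 with the narrower span and -3.44 to -2.50 when 1 array was left out. Mthfd1l minus Mthfd1 became 0.40, 0.11 and 0.20 in the same order, and Aldh1l2 minus Aldh1l1 0.26, 0.15 and 0.10, with 0.52 after quantile normalization. Mthfd2 minus Mthfd2l ranged from -0.64 to 0.38 when 1 array was left out. The change of that pair was -0.33 after quantile normalization, -0.51 after cyclic loess, -0.39 with the trend removed and -0.44 with the narrower span. The cause of these shifts was not tested.

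The replicate numbers of the titles did not pair the arrays by any label. Deviations from group means correlated at 0.134 between the arrays numbered 1 and at 0.098 between those numbered 2, over genes. Those of DMSO replicate 3 and ATRA replicate 2 correlated at 0.071. The deviations of 2 ATRA arrays mirror each other, so these values are not independent. With the replicate number as a block, 0 members, 0 of all genes in either direction and 0 genes of the pathway lists passed (5412 genes and 6 members at an unadjusted p under 0.05 by limma), and Shmt2 differed by -4.31 (limma adjusted p = 0.139).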
